A study of Mus musculus with 4 samples.

Results

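The genes described here are 10 members of the bone morphogenetic protein (BMP) and ALK1 signalling pathway: the ligand gene Bmp6, the receptor genes Acvrl1 (which encodes ALK1) and Bmpr2, the co-receptor gene Eng, the inhibitory SMAD genes Smad6 and Smad7, and the target genes Id1, Id2, Id3 and Tmem100. They were chosen by name, and all 10 were found among the 20076 genes of the deposited count matrix. Their levels were followed across the cell classes and endothelial subtypes of the adult mouse lung, and compared between mice with and without endothelial deletion of the transcription factor ERG. Whole lungs of 4 mice, 1 library per mouse, had been dissociated and profiled by droplet single-cell RNA-seq. The 2 libraries called WT came from mice with both Erg alleles floxed and no Cre (ERG fl/fl). The 2 libraries called ERG CKO came from mice with the same floxed alleles plus CDH5-CreER(T), a recombinase driven by the endothelial Cdh5 promoter and switched on by tamoxifen. Mice of both groups received tamoxifen, 0.5 mg daily for 5 injections, and lungs were taken 90 days later. The age of the mice is not given in the labels. The control mice thus also carried floxed alleles and tamoxifen, and Cre itself was present only in ERG CKO mice, so Cre and the deletion cannot be told apart.

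ALK1 is a type I receptor found mainly on endothelial cells (ECs). Together with the type II receptor BMPR2 and the co-receptor endoglin it binds circulating BMP ligands and phosphorylates receptor-regulated SMADs, which enter the nucleus with SMAD4 and switch on the Id genes, Tmem100 and, as negative feedback, Smad6 and Smad7. In the lung the pathway is known for keeping vessels quiescent: inherited loss of ALK1 or endoglin causes hereditary haemorrhagic telangiectasia with arteriovenous malformations, and loss of BMPR2 underlies heritable pulmonary arterial hypertension.

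In the genome (GRCm38, the build mm10 of the submitters' processing notes, with gene positions from RefSeq) the genes are scattered. Bmp6 lies at chr13:38345716-38500314, Acvrl1 at chr15:101128522-101145336, Bmpr2 at chr1:59764279-59878081, Smad6 at chr9:63953076-64022085, Id2 at chr12:25093799-25096092, Id3 at chr4:136143822-136145392 and Tmem100 at chr11:90030348-90036508. Eng and Id1 share chromosome 2, at chr2:32646595-32682669 and chr2:152736251-152737410. RefSeq promoter windows, from 250 bases before to 50 bases after a transcription start, were matched by symbol for 6 of the 10 genes: Bmp6, Bmpr2, Eng, Smad6, Id2 and Id3. The windows of Eng, Smad6 and Id2 are shown because these 3 genes passed a test between genotypes or between capillary subtypes below and have a window. Capitals mark matches, on either strand, to the core of the BMP response element (GGCGCC), the SMAD binding element (CAGAC) or an ETS site, the kind of site that ERG binds (CAGGAA or CCGGAA).
Eng (chr2:32646345-32646644, plus strand): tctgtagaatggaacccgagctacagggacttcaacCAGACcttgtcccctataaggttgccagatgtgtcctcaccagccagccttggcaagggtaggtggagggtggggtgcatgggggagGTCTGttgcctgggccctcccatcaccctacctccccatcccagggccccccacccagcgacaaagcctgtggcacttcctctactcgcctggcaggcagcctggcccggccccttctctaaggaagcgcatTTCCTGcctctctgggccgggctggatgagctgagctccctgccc
Smad6 (chr9:64022010-64022309, minus strand): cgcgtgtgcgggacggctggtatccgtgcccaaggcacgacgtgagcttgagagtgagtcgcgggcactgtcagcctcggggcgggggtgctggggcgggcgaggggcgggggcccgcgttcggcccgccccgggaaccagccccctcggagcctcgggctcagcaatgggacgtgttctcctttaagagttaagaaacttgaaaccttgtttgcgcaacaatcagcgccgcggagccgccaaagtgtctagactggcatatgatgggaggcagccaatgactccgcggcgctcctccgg
Id2 (chr12:25096043-25096342, minus strand): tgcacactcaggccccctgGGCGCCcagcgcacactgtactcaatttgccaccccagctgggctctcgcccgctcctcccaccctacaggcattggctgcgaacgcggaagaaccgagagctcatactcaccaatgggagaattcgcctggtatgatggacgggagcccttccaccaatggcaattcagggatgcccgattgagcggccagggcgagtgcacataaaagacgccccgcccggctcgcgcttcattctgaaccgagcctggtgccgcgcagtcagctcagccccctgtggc

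The Eng window held 2 SMAD binding elements, at -214 and, on the opposite strand, at -127, and an ETS match on the opposite strand at 6, counted from the start site as 1. The Id2 window held 1 BMP response element core, at -231, and the Smad6 window held no match to these letters. Among the other windows, Bmpr2 had a BMP response element core at -105, Bmp6 a SMAD binding element at -119, and Id3 a pair of SMAD binding elements at -167 and -68. These matches are common. Of all 32851 RefSeq promoter windows, 11.9% held GGCGCC, 49.6% CAGAC, 30.6% CAGGAA and 14.9% CCGGAA, on either strand.

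The libraries held 1852 to 3097 cells and 11263911 to 18646776 unique molecular identifiers (UMIs, each marking 1 captured RNA molecule), with median depths of 4611 to 4899 UMIs per cell. Clustering gave 2532 ECs (578 and 701 in WT, 752 and 501 in ERG CKO), and among them 1729 ECs of general capillary type (gCap), 320 of aerocyte type (aCap, the capillary cells of gas exchange), 169 of vein type, 59 of artery type and 25 of lymphatic type. Erg itself, the deleted gene, was read in ECs at 85.9 and 89.2 CPM in WT against 105 and 82.02 CPM in ERG CKO, with a log2 fold change of 0.07 (SE 0.16, adjusted p = 0.889). The count covers the whole gene and the sources used here do not say which part of Erg was deleted, so it is no check of the labels, and WT and ERG CKO name the libraries as labelled throughout. Levels are given in CPM, the counts in each 1000000 UMIs: the UMIs of a gene were summed over the cells of a class in a library and divided by all UMIs of those cells. Values given in pairs are replicates 1 and 2 of a group, in that order.

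Across lung cells, 9 of the 10 genes had their highest mean level in a capillary EC subtype, Bmp6 at under 50 CPM in every library, and Id2 had it in natural killer (NK) cells, among the classes with at least 20 cells in every library (levels are means ± SD over all 4 libraries, n = 4, as descriptions without a test). Acvrl1 stood at 1600.0 ± 541 CPM in aCap, 1267 ± 284 CPM in gCap and 803 ± 139 CPM in vein ECs. Its ranges over all 4 libraries overlapped between neighbours in this order. WT alone had 1957 and 2163 CPM in aCap, 1409 and 1575 CPM in gCap and 809 and 970 CPM in vein ECs. These WT ranges lay apart. Bmpr2 stood at 1353 ± 123 CPM in gCap, 1242 ± 198 CPM in aCap and 1006 ± 294 CPM in vein ECs. Over all 4 libraries its neighbouring ranges overlapped. Eng, whose product presents ligand to ALK1, was nearly level over the 3 subtypes, at 1094 ± 234 CPM in aCap, 1090.3 ± 146 CPM in gCap and 1023 ± 111 CPM in vein ECs. The vein range of Eng did not reach down to the next class, so EC subtypes lay apart for this gene from the other classes in this order. The 59 artery ECs, which are left out of it, had higher means than either capillary subtype for Smad6, Smad7, Id1 and Id3.

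Tmem100, which encodes a small membrane protein induced by ALK1 in endothelium, had its highest mean in gCap ECs, at 2587 ± 376 CPM, and its library ranges in aCap and vein ECs lay apart (1579 to 2315 CPM against 973 to 1413 CPM). The feedback inhibitor Smad6 stood at 360.0 ± 122 CPM in aCap and 321 ± 136 CPM in gCap ECs. Smad7, an inhibitor that TGF-beta signalling also induces, was read in lymphocytes too. It stood at 494 ± 162 CPM in gCap ECs, and T cells, at 298 ± 14.1 CPM, overlapped with vein ECs, at 351 ± 120.3 CPM.

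The Id genes encode inhibitors of basic helix-loop-helix factors, and each had its own distribution. In this order Id1 was highest in aCap (622 ± 231 CPM) and gCap ECs (532 ± 115 CPM) and was read at 5.28 CPM on average in T cells. Id3 was spread over gCap (1006 ± 297 CPM), vein and aCap ECs and fibroblasts (665 ± 168 CPM). Id2 was highest in NK cells at 992 ± 111 CPM, a range apart from the next class, monocytes or interstitial macrophages at 463 ± 122 CPM. Among ECs, Id2 stood at 145 ± 62.5 CPM in vein, 113 ± 80.97 CPM in aCap and 108 ± 46.7 CPM in gCap ECs. In the WT libraries alone its means were 194, 49.8 and 136 CPM in the same order.

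**Figure D1:**
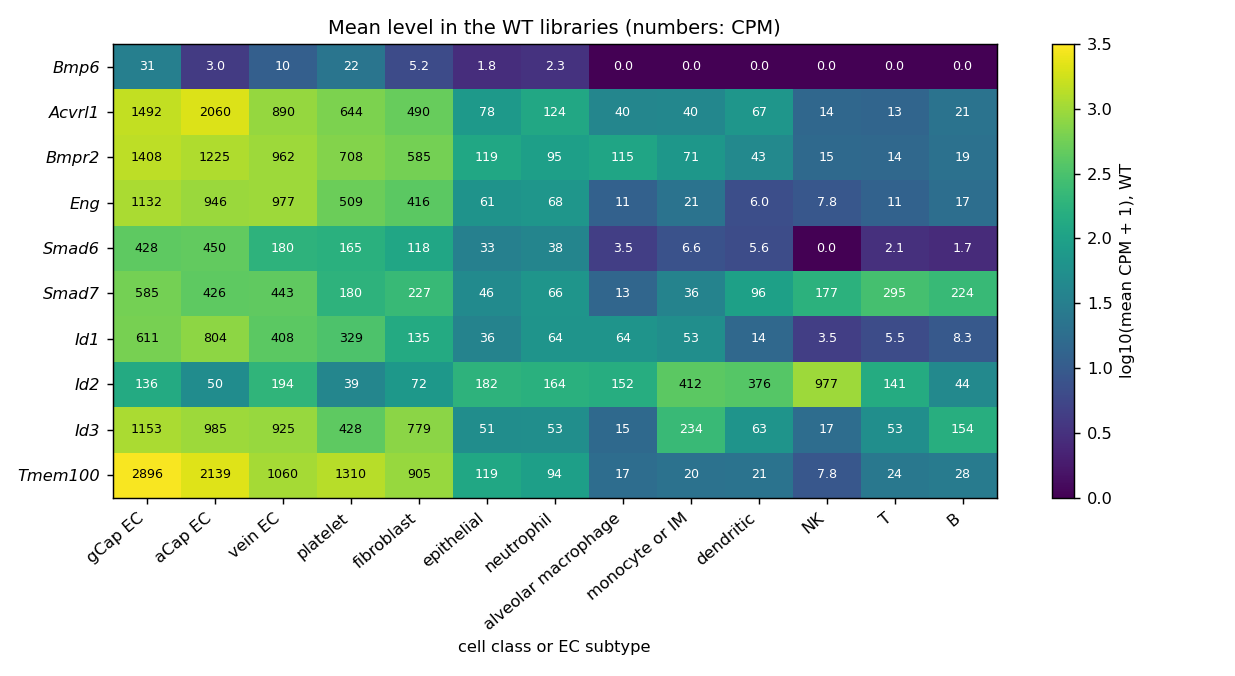
Heat map of the mean level of the 10 genes (rows) in the WT libraries over 13 cell classes and EC subtypes (columns). Colour is log10 of the mean CPM plus 1, and the printed numbers are the mean CPM of 2 libraries. The highest value of each row lies in an EC column, except for Id2, which peaks in NK cells.

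Markers of ECs were also read outside the endothelium. The 8 EC markers (Pecam1, Cdh5, Cldn5, Egfl7, Kdr, Ramp2, Tie1 and Emcn) summed to 42.8% of their EC level in platelets, 34.96% in fibroblasts, 32.3% in mural cells and 10.1% in epithelial cells, and to 1.26% in T cells. Acvrl1 reached 40.1%, 40.02%, 36.05%, 10.03% and 0.976% of its EC level in the same classes, and Tmem100 reached 48.1%, 38.98%, 41.2%, 7.84% and 0.86%. These shares lay near those of the markers. Whether the Acvrl1 and Tmem100 read in those classes came from their own cells was not tested. Id3 in mural cells (95.4% of its EC level) and fibroblasts (70.1%), Eng in mural cells (66.4%) and Smad7 in T cells (71.3%) lay above the highest single EC marker of those classes, which reached 41.7%, 40.6% and 6.34%. Other genes did so too, among them Bmpr2 in fibroblasts (52.5%) and mural cells (50.1%) and Smad7 in mural cells (64.4%).

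Counted by cells, Acvrl1 had a UMI in 97.2% and 97.3% of WT cells against 94.02% and 94.2% of ERG CKO cells among ECs, and in 2.38% and 3.72% of WT cells against 5.56% and 4% of ERG CKO cells among T cells, which are deeper (median 5871 to 6369 UMIs against 4004 to 5432 in ECs). Cells thinned to 1000 UMIs gave 72.2% and 77.6% of WT cells against 57.6% and 62.9% of ERG CKO cells for ECs. For Smad6 the unthinned shares were 76.3% and 68.6% of WT cells against 48.9% and 56.3% of ERG CKO cells, and the thinned ones 30.96% and 28.7% of WT cells against 13.1% and 23.01% of ERG CKO cells, with at most 1.85% of T cells holding a Smad6 UMI in any library. Both genes were thus detected in a smaller share of ECs in each ERG CKO library than in each WT library, at full and at equal depth.

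In all ECs pooled, none of the 10 genes passed the test between ERG CKO and WT, although every fold change was below 0. By edgeR's quasi-likelihood test over 10707 genes, 2.79% were called, that is, had an adjusted p no higher than 0.05. Of the 10 genes 0 were called and 4 had an unadjusted p under 0.05, as 16.7% of all genes did, and their median log2 fold change was -0.45, beside 0.01 over all genes. DESeq2 called 2 of them, Acvrl1 and Smad6. Both ERG CKO libraries lay below both WT libraries for 4 genes, Acvrl1, Smad6, Id1 and Tmem100, as they did for 19.7% of all genes tested. The pool held different shares of the subtypes by genotype. For WT, 440 of 578 and 508 of 701 ECs were gCap, while 44 and 73 were aCap. For ERG CKO, 450 of 752 and 331 of 501 ECs were gCap, while 106 and 97 were aCap. The 8 gCap markers of pooled ECs summed to 9006 and 8186 CPM for WT. For ERG CKO they summed to 6058 and 5853 CPM, all 8 lower in each library. The part of this mix in the fold changes was not tested.

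Acvrl1 in ECs was at 1351 and 1575 CPM in WT against 854 and 1114 CPM in ERG CKO (log2 fold change -0.61, SE 0.16, adjusted p = 0.0955). Smad6 was at 419 and 392 CPM in WT against 143 and 279 CPM in ERG CKO (log2 fold change -0.996, SE 0.27, adjusted p = 0.113). The groups did not overlap for either gene, and the lower ERG CKO value was that of replicate 1 each time. Id1 was at 669.6 and 566 CPM in WT against 335 and 510.0 CPM in ERG CKO (log2 fold change -0.59, SE 0.20, adjusted p = 0.194), and Tmem100 at 2579 and 2304 CPM in WT against 1814 and 1953 CPM in ERG CKO (log2 fold change -0.41, SE 0.12, adjusted p = 0.14). Here too every ERG CKO library was below every WT library, with ERG CKO replicate 2 the closer one.

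The other 6 genes overlapped between groups in ECs. Smad7 was at 517 and 539 CPM in WT against 247 and 549 CPM in ERG CKO (log2 fold change -0.46, SE 0.31, adjusted p = 0.552), so that ERG CKO replicate 2 lay level with WT and replicate 1 far below. Id2 showed the same arrangement, at 117 and 147 CPM in WT against 64.2 and 139 CPM in ERG CKO (log2 fold change -0.45, SE 0.32, adjusted p = 0.566), as did Id3, at 991 and 1182 CPM in WT against 589.7 and 1121 CPM in ERG CKO (log2 fold change -0.39, SE 0.27, adjusted p = 0.552). The receptor Bmpr2 was at 1315 and 1235 CPM in WT against 1037 and 1333 CPM in ERG CKO (log2 fold change -0.15, SE 0.15, adjusted p = 0.706). Eng was at 1041 and 1092 CPM in WT against 901 and 1218 CPM in ERG CKO (log2 fold change -0.05, SE 0.16, adjusted p = 0.916). Bmp6 was read from few molecules, 51, 89, 52 and 63 UMIs, or 18.9 and 27.9 CPM in WT against 11.1 and 23.5 CPM in ERG CKO (log2 fold change -0.55, SE 0.36, adjusted p = 0.524).

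ERG CKO replicate 1 had the lowest CPM of the 4 libraries for all 10 genes in ECs, where it was lowest for 23.6% of all genes tested. Counts of calls turned on this library: with ERG CKO replicate 2 left out, 8 of the 10 genes were called lower in ECs (all but Bmpr2 and Eng), and with replicate 1 left out only Smad6 was. Calls over all genes were also more frequent then, at 7.12% without ERG CKO replicate 2 and 6.39% without replicate 1. Beside this, the 15 dissociation stress genes summed to 22227 and 23701 CPM in WT against 18118 and 17597 CPM in ERG CKO, 4 haemoglobin genes to 34.4 and 50.4 CPM in WT against 1518 and 2209 CPM in ERG CKO, and 7 platelet markers to 68.5 and 144 CPM in WT against 404 and 213 CPM in ERG CKO. Between the 2 ERG CKO libraries the stress sum was nearly equal, and the haemoglobin and platelet sums differed. The part of these lists in the differences was not tested.

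**Figure D2:**
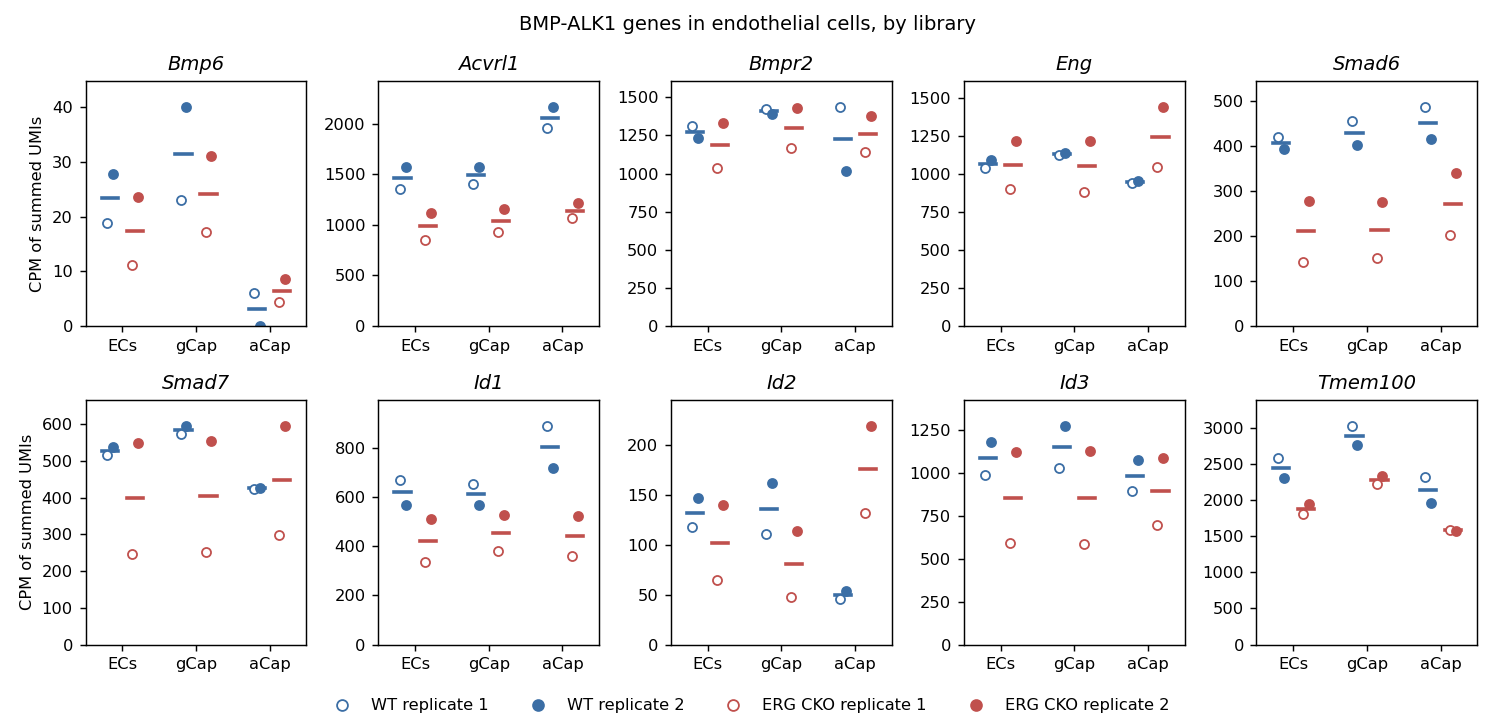
CPM of the 10 genes in all ECs, gCap ECs and aCap ECs, with 1 point per library (open, replicate 1; filled, replicate 2; blue, WT; red, ERG CKO) and a short line at the mean of each pair; every axis starts at 0. The open red point is the lowest of the 4 for every gene in ECs and gCap ECs, and Id2 in aCap ECs has both red points above both blue ones.

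In gCap ECs (331 to 508 cells per library), Smad6 was the gene of the 10 that passed the test, among 3.98% of 9793 genes tested. It was at 454 and 402 CPM in WT against 150.1 and 276 CPM in ERG CKO (summing 810, 784, 351 and 419 UMIs), and fell by 1.06 on the log2 scale (SE 0.22, adjusted p = 0.0181). Both ERG CKO libraries were below both WT libraries. The call was lost without WT replicate 1 (log2 fold change -0.96, adjusted p = 0.541), without WT replicate 2 (-1.16, adjusted p = 0.434) and when the libraries were clustered without alignment (-0.65, adjusted p = 0.498). With ERG CKO replicate 1 left out 3 genes were called (Acvrl1, Smad6 and Tmem100), and with ERG CKO replicate 2 left out 8 were, beside 6.33% and 7.24% of all genes. Without WT replicate 1 or WT replicate 2, 0.0193% and 0.0196% of all genes were called.

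Every other fold change in gCap ECs was also below 0, and the median of the 10 was -0.49, beside 0.0036 over all genes. Acvrl1 came nearest to the threshold, at 1409 and 1575 CPM in WT against 928 and 1156 CPM in ERG CKO (log2 fold change -0.56, SE 0.14, adjusted p = 0.0516), with groups that did not overlap. The groups were also apart for Smad7, at 574 and 596 CPM in WT against 252 and 556 CPM in ERG CKO (log2 fold change -0.59, SE 0.26, adjusted p = 0.309). They were apart for Id1, at 654 and 568 CPM in WT against 378 and 527 CPM in ERG CKO (log2 fold change -0.48, SE 0.17, adjusted p = 0.172), and for Tmem100, at 3031 and 2761 CPM in WT against 2222 and 2335 CPM in ERG CKO (log2 fold change -0.39, SE 0.12, adjusted p = 0.125). This made 5 of 10 genes with both ERG CKO libraries below both WT libraries, beside 18.4% of all genes tested.

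Id2 in gCap ECs was at 110.4 and 162 CPM in WT against 47.9 and 113 CPM in ERG CKO (log2 fold change -0.85, SE 0.30, adjusted p = 0.174), and Id3 at 1029.8 and 1277 CPM in WT against 586 and 1129 CPM in ERG CKO (log2 fold change -0.48, SE 0.23, adjusted p = 0.366). In both, ERG CKO replicate 2 lay within or next to the WT values and replicate 1 well below them. Bmpr2 (-0.16), Eng (-0.16) and Bmp6 (-0.49) had log2 fold changes with adjusted p of 0.675, 0.725 and 0.545. Beside these results, the 8 gCap markers summed to 10723 and 10228 CPM in WT against 7663 and 7921 CPM in ERG CKO, all 8 of them lower in both ERG CKO libraries. The stress genes summed to 24369 and 25980.5 CPM in WT against 18258 and 19148 CPM in ERG CKO, and the haemoglobin genes to 34.8 and 48.2 CPM in WT against 2845 and 3886 CPM in ERG CKO, and their part was not tested.

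In aCap ECs (44 to 106 cells per library), 4 of the 9 genes tested passed, with 10.5% of 7007 genes called. Acvrl1, Smad6 and Id1 fell and Id2 rose. Bmp6 had too few UMIs to be tested (2, 0, 3 and 5 UMIs). Acvrl1 was at 1957 and 2163 CPM in WT against 1064 and 1216 CPM in ERG CKO (summing 645, 1159, 725 and 710 UMIs), and fell by 0.87 on the log2 scale (SE 0.16, adjusted p = 0.00143). The groups stood far apart, with similar values within each. This call held in each of the alternatives run for aCap ECs.

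Id1 was at 889 and 718 CPM in WT against 358 and 522 CPM in ERG CKO and fell by 0.88 on the log2 scale (SE 0.19, adjusted p = 0.00648). Smad6 was at 485 and 414 CPM in WT against 201 and 339 CPM in ERG CKO and fell by 0.75 (SE 0.22, adjusted p = 0.0393). Neither gene overlapped between groups, and ERG CKO replicate 1 was the lower library for both. The Smad6 call was lost without ERG CKO replicate 1 (-0.44, adjusted p = 0.309), without WT replicate 1 (-0.66, adjusted p = 0.0633), by DESeq2 (adjusted p = 0.139) and after thinning to 1000 UMIs per cell (-0.07, adjusted p = 0.944). The Id1 call was lost after thinning (adjusted p = 0.0801).

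Id2 was at 45.5 and 54.1 CPM in WT against 132 and 219 CPM in ERG CKO (summing 15, 29, 90 and 128 UMIs), and rose by 1.76 on the log2 scale (SE 0.28, adjusted p = 0.000583). Both ERG CKO libraries stood above both WT libraries. The call held in each of the alternatives run, with a log2 fold change of 1.38 to 2.07 when 1 library was left out.

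Of the other genes in aCap ECs, Tmem100 was at 2315 and 1963 CPM in WT against 1581 and 1579 CPM in ERG CKO (log2 fold change -0.45, SE 0.15, adjusted p = 0.0828), with groups apart. Eng was at 941 and 952 CPM in WT against 1045 and 1437 CPM in ERG CKO (log2 fold change 0.37, SE 0.17, adjusted p = 0.229), and here both ERG CKO libraries were above both WT libraries. Eng was called in aCap ECs without ERG CKO replicate 1 (log2 fold change 0.57, adjusted p = 0.0348), with 9.63% of all genes called. Smad7 (0.05, adjusted p = 0.955), Id3 (-0.16, adjusted p = 0.727) and Bmpr2 (0.03, adjusted p = 0.965) overlapped. In total, 4 genes were lower and 2 higher in both ERG CKO libraries, beside 23.3% and 26.2% of all genes tested, and the median log2 fold change of the 9 was -0.16, beside 0.02 over all genes.

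Other gene lists differed in the same aCap cells. The 9 aCap markers summed to 15735 and 15562 CPM in WT against 5746 and 7710.0 CPM in ERG CKO, all 9 lower in both ERG CKO libraries, Car4 for example at 3265 and 3635 CPM in WT against 1515 and 1489.9 CPM in ERG CKO. The 8 EC markers, of which Kdr is also an aCap marker, summed to 21521 and 21863 CPM in WT against 12657 and 12471 CPM in ERG CKO. Stress genes summed to 10849.8 and 12296 CPM in WT against 19959 and 14603 CPM in ERG CKO, 10 of 15 of them higher in both ERG CKO libraries, which is the opposite of their order in gCap ECs. The gCap markers summed to 2469.7 and 1573 CPM in WT against 1768 and 1299.8 CPM in ERG CKO, and overlapped between groups. A changed level per cell and a changed mix of cells within the aCap cluster cannot be told apart. The part of the stress genes in these results was not tested.

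**Figure D3:**
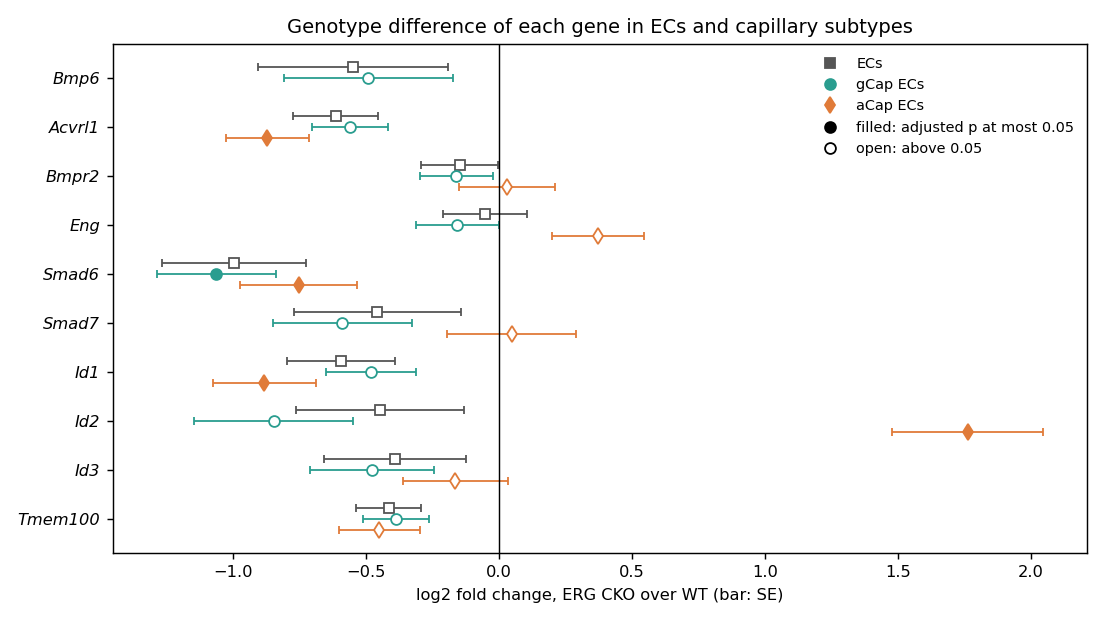
Log2 fold change of ERG CKO over WT (x axis) with its SE for each of the 10 genes (rows) in all ECs (grey squares), gCap ECs (green circles) and aCap ECs (orange diamonds); filled points had an adjusted p of at most 0.05 by edgeR. All grey and green points lie left of 0, and Id2 in aCap ECs lies apart on the right.

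The genotype difference itself was compared between the capillary subtypes with an interaction term, each library entering with its gCap and its aCap sum. Of 9501 genes 7.51% were called, and of the 10 genes 3 were: Id2, Smad7 and Eng, each higher in aCap relative to gCap. The log2 difference of fold changes, aCap minus gCap, was 2.67 (SE 0.28, adjusted p = 1.66e-12) for Id2, 0.66 (SE 0.18, adjusted p = 0.00767) for Smad7 and 0.53 (SE 0.16, adjusted p = 0.0174) for Eng. Id2 was thus below WT on average in gCap ECs and above WT in aCap ECs, where the cells compared also differed in their aCap markers. Smad7 was on average lower in gCap ECs and near WT in aCap ECs, and Eng was near WT in gCap and above it in aCap ECs. Id2 was called in each alternative run for this test. The Smad7 and Eng calls were both lost by DESeq2, with thinning, without alignment (where Acvrl1 and Id1 were called beside Id2) and when either ERG CKO library was left out. The Smad7 call was also lost without WT replicate 2, and the Eng call without WT replicate 1.

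Acvrl1 passed the test in aCap and not in gCap ECs, but the difference between the subtypes did not pass, at -0.30 (SE 0.15, adjusted p = 0.29). The same held for Id1, at -0.40 (SE 0.17, adjusted p = 0.156). Smad6 passed in both, with a difference of 0.32 (SE 0.19, adjusted p = 0.408). Tmem100 had fold changes of -0.39 and -0.45 in the 2 subtypes, with a difference of -0.06 (SE 0.15, adjusted p = 0.913), and Id3 a difference of 0.35 (SE 0.16, adjusted p = 0.21).

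The same orders were then counted over the 8 EC clusters with 10 or more cells in every library. These clusters share their 4 mice, so they are no replicates of each other. How many of all genes were lower in as many clusters was not computed, so the counts below only describe these genes. Smad6 was lower in both ERG CKO libraries than in both WT libraries in 8 of 8 clusters, from 171 and 189.8 CPM in WT against 104 and 141 CPM in ERG CKO in the vein cluster to 475 and 862 CPM in WT against 171 and 375 CPM in ERG CKO in the artery cluster. Acvrl1 was so in 7 of 8, all but the unnamed cluster 4, which carried platelet markers. Id1 and Tmem100 were so in 6 each. Id1 was at 234 and 234 CPM in WT against 239.9 and 206 CPM in ERG CKO in gCap cluster 2, which was led by interferon genes, and thus level between groups there.

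Id2 was lower in both ERG CKO libraries in 4 of 8 clusters and higher in 1, the aCap cluster. Eng was lower in 1, gCap cluster 6, and higher in 1, again the aCap cluster. Id3 overlapped in all 8. Igfbp3, Col13a1, Apln and Esm1 were among the leading genes of gCap cluster 6 (16 and 25 cells in WT, 44 and 41 in ERG CKO). There Acvrl1 was at 1595 and 1341 CPM in WT against 518 and 550.0 CPM in ERG CKO. Tmem100 was at 2668 and 2376 CPM in WT against 864 and 997 CPM in ERG CKO. Bmp6, read from few UMIs even in all ECs, was at 57.99 and 169.7 CPM in WT against 6.17 and 34.4 CPM in ERG CKO. The 8 gCap markers of this cluster summed to 14499 and 15647 CPM in WT against 7428 and 8181 CPM in ERG CKO, 7 of them lower in both ERG CKO libraries. Its 9 aCap markers summed to 1363 and 1493 CPM in WT against 2227 and 2509 CPM in ERG CKO. The part of these markers was not tested. Without cluster 6 Smad6 was still the only one of the 10 genes called in gCap ECs, at -0.996 (adjusted p = 0.0201). In the 59 artery ECs, too few to test, Id1, Id2 and Id3 had their highest means among the 8 clusters. Id1 was at 1221 and 1117 CPM in WT against 658 and 997 CPM in ERG CKO there, Id2 at 328 and 255 CPM in WT against 108 and 274 CPM in ERG CKO and Id3 at 2058 and 1666 CPM in WT against 1271 and 1929 CPM in ERG CKO.

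**Figure D4:**
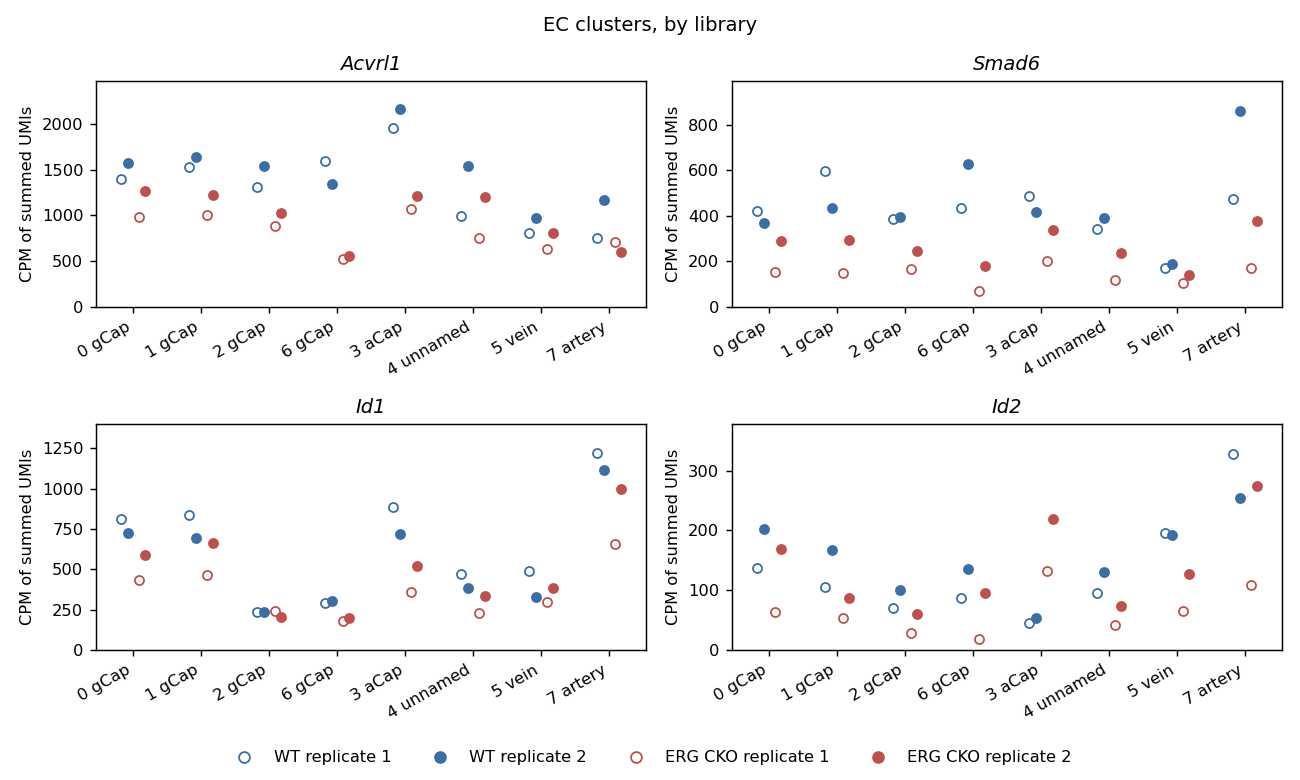
CPM of Acvrl1, Smad6, Id1 and Id2 (1 panel each) in 8 EC clusters on the x axis, named by number and subtype, with 1 point per library (open, replicate 1; filled, replicate 2; blue, WT; red, ERG CKO). Red points lie below blue ones in all 8 clusters for Smad6, and above them only in the aCap cluster for Id2.

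In vein ECs (20 to 70 cells per library), 9 of the genes were tested and 0 called, with 0.185% of all genes called. Id2 was called there without the filter on low counts, with replicate number as a block, without alignment and with a 10% mitochondrial limit. Smad7 was called in all of these settings but the first, and Smad6 and Id1 without alignment. Over vein ECs and the classes outside the endothelium, 0.758%, 0.904%, 0.808% and 0.215% of all genes were called in these settings in turn. Id2 was at 196 and 193 CPM in WT against 64.4 and 126 CPM in ERG CKO (log2 fold change -1.31, SE 0.32, adjusted p = 0.131), Smad7 at 442 and 444 CPM in WT against 190.0 and 327 CPM in ERG CKO (log2 fold change -0.94, SE 0.28, adjusted p = 0.234) and Smad6 at 171 and 189.8 CPM in WT against 104 and 141 CPM in ERG CKO (log2 fold change -0.71, SE 0.28, adjusted p = 0.456). The unadjusted p was under 0.05 for these 3 of 9, as for 8.74% of all genes tested. The stress genes stood beside them at 22914 and 27713 CPM in WT against 16226 and 11092 CPM in ERG CKO, 11 of 15 lower in both ERG CKO libraries, and their part was not tested.

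Outside the endothelium, 0 of the 10 genes were called by edgeR in any of 10 classes with at least 20 cells in every library, and DESeq2 also called 0. With WT replicate 1, WT replicate 2, ERG CKO replicate 1 or ERG CKO replicate 2 left out, the calls over these classes and vein ECs numbered 3, 4, 1 and 5 in turn, beside 0.972%, 0.864%, 0.597% and 0.863% of all genes tested in them and 0.2% with all libraries. Id2 in alveolar macrophages was among them without WT replicate 1, WT replicate 2 or ERG CKO replicate 2, and Tmem100 in NK cells without WT replicate 2 or ERG CKO replicate 1. Without ERG CKO replicate 2 these counts and shares covered 12 classes in place of 11, since the limit of 20 cells applied to the libraries kept. With all libraries, the share of all genes called was 0% in alveolar macrophages, epithelial cells, neutrophils and platelets, 0.0243% in monocytes or interstitial macrophages, 0.0962% in NK cells, 0.142% in T cells, 0.277% in B cells, 0.656% in fibroblasts and 0.733% in dendritic cells. Genes with an unadjusted p under 0.05 numbered 6 in epithelial cells, 2 in fibroblasts, 1 each in alveolar macrophages, B cells, dendritic cells, monocytes or interstitial macrophages, NK cells and platelets, and 0 in T cells and neutrophils. Of all genes, 7.71% passed that level in epithelial cells, 8.74% in fibroblasts and 3.03% to 9.67% in the other 8 classes.

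In epithelial cells 7 of 9 genes tested were higher in both ERG CKO libraries, beside 42.6% of all genes. Eng was at 68.1 and 54.4 CPM in WT against 169 and 171 CPM in ERG CKO (log2 fold change 1.14, SE 0.24, adjusted p = 0.282), Id1 at 40.5 and 30.9 CPM in WT against 93.1 and 113 CPM in ERG CKO (log2 fold change 1.18, SE 0.29, adjusted p = 0.329) and Bmpr2 at 137 and 101 CPM in WT against 262 and 302 CPM in ERG CKO (log2 fold change 0.92, SE 0.25, adjusted p = 0.407). The EC markers stood beside them at 744 and 785 CPM in WT against 2023 and 1868 CPM in ERG CKO, 8 of 8 higher in both ERG CKO libraries, and the median depth of these cells was 18045 and 20738 UMIs in WT and 2426 and 785 in ERG CKO. Eng in dendritic cells was at 6.89 and 5.15 CPM in WT against 32.1 and 30.02 CPM in ERG CKO (log2 fold change 2.37, SE 0.58, adjusted p = 0.124), with 7 of 8 EC markers higher in both ERG CKO libraries there. The part of endothelial RNA in these values was not tested.

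Id2 in alveolar macrophages was at 156 and 148 CPM in WT against 314 and 214 CPM in ERG CKO (log2 fold change 0.81, SE 0.17, adjusted p = 0.327), with groups apart and 0 of 8 EC markers higher in both ERG CKO libraries. In fibroblasts Id3 was at 861 and 697 CPM in WT against 453 and 648 CPM in ERG CKO (log2 fold change -0.53, SE 0.21, adjusted p = 0.494) and Smad7 at 246 and 209 CPM in WT against 173 and 137 CPM in ERG CKO (log2 fold change -0.51, SE 0.23, adjusted p = 0.545). Beside them the stress genes of fibroblasts summed to 18573 and 19496 CPM in WT against 13504 and 14361 CPM in ERG CKO, their 8 markers to 11315 and 12554 CPM in WT against 7388 and 8628 CPM in ERG CKO and the haemoglobin genes to 35.8 and 26.99 CPM in WT against 5408 and 49.1 CPM in ERG CKO. The median depth of fibroblasts was 4966 and 4387 UMIs in WT against 2265 and 4072 UMIs in ERG CKO, and the part of these was not tested. The high Id2 of NK cells was 871 and 1084 CPM in WT against 1089 and 924 CPM in ERG CKO (log2 fold change 0.03, SE 0.15, adjusted p = 1), and the Smad7 of T cells 297 and 293 CPM in WT against 285 and 318 CPM in ERG CKO (log2 fold change 0.04, SE 0.15, adjusted p = 1). These lymphocyte levels overlapped between groups.

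The rest of the pathway was followed with a list of 53 further genes, of which 50 were in the matrix. In ECs 32 were tested and 4 called, all higher in ERG CKO: Smad5, Nbl1, Fst and Angpt2. In gCap ECs 5 of 29 were called, the same 4 and Apln, all higher. In aCap ECs 7 of 20 were called, 4 higher (Smad5, Fstl1, Bambi and Angpt2) and 3 lower (Fkbp1a, Smurf2 and Apln). All genes were called at 2.79%, 3.98% and 10.5% in the same classes. Fst in ECs and gCap ECs, Apln in gCap ECs, and Bambi and Angpt2 in aCap ECs reached the filter on low counts in ERG CKO libraries only. Fstl1 in aCap ECs reached it in 1 of 2 WT libraries. These genes could not have been called lower there and are given without p. The counts of calls and of directions above include them. The medians of the genes tested were -0.08, 0.11 and 0.06, beside 0.01, 0.0036 and 0.02 over all genes. Counts in ECs moved with the library left out, from 1 without either WT replicate to 5 and 9 when ERG CKO replicate 1 or replicate 2 was omitted.

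Of the 10 listed ligands only Bmp4 was tested in ECs, at 32.2 and 33.5 CPM in WT against 20.3 and 37.7 CPM in ERG CKO (log2 fold change -0.27, SE 0.27, adjusted p = 0.715), and of the receptors and co-receptors 6 were tested and 0 called. Smad5, which encodes a receptor-regulated SMAD of this pathway, was at 44.05 and 41.96 CPM in WT against 79.2 and 77.5 CPM in ERG CKO, and rose by 0.83 on the log2 scale (SE 0.13, adjusted p = 0.0274). The ERG CKO libraries stood above the WT libraries and close to each other. It also rose in gCap (0.74, adjusted p = 0.0216) and aCap ECs (1.15, adjusted p = 0.0343).

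Of the extracellular and membrane inhibitors, Fst, Nbl1, Bambi and Fstl1 had higher levels in ERG CKO where they were called. Only Nbl1 of these reached the filter on low counts in every WT library. Fst, which encodes the ligand trap follistatin, was read in ECs from 2 UMIs over both WT libraries and 146 over both ERG CKO libraries, a ratio of CPM of 58.5 (95% exact interval 15.9 to 488, counting error only). In gCap ECs the ratio was 45.5 (12.3 to 382). Nbl1, which encodes another BMP antagonist, was at 17.8 and 20.04 CPM in WT against 35.7 and 45.9 CPM in ERG CKO in ECs and rose by 1.05 (SE 0.19, adjusted p = 0.0365). In gCap ECs Nbl1 rose by 2.14 (adjusted p = 0.00193), and its fold change in aCap minus gCap ECs was -2.30 (SE 0.44, adjusted p = 5.07e-05). In aCap ECs Bambi, the gene of a decoy receptor without kinase activity and itself a BMP target, was at 9.1 and 7.46 CPM in WT against 135 and 85.6 CPM in ERG CKO, a log2 fold change of 3.72 (SE 0.43). Bambi in gCap ECs was at 54.9 and 73.8 CPM in WT against 73.1 and 96.3 CPM in ERG CKO (log2 fold change 0.34, SE 0.19, adjusted p = 0.467), and the 2 fold changes differed by 3.46 (SE 0.46, adjusted p = 7.03e-09). Fstl1, a secreted follistatin relative, had a log2 fold change of 1.61 in aCap ECs with values of 18.2 and 14.9 CPM in WT against 45.5 and 56.5 CPM in ERG CKO.

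Of the inhibitors, 2 genes fell in aCap ECs. Fkbp1a, whose product FKBP12 holds type I receptors inactive, was at 1757 and 1724 CPM in WT against 945 and 911 CPM in ERG CKO and fell by 0.92 on the log2 scale (SE 0.15, adjusted p = 0.000732). Smurf2, the gene of a ubiquitin ligase that degrades SMADs and receptors, was at 279 and 222 CPM in WT against 134 and 111 CPM in ERG CKO and fell by 1.03 (SE 0.20, adjusted p = 0.00294). Neither passed in gCap ECs, at -0.12 (adjusted p = 0.771) and -0.36 (adjusted p = 0.256). The difference between subtypes was -0.80 (SE 0.16, adjusted p = 6.83e-05) for Fkbp1a and -0.67 (SE 0.22, adjusted p = 0.0481) for Smurf2. Of the 6 pathway genes with the highest level in ECs, which include Fkbp1a and Smurf2, 0 were called in ECs as a whole. The transcriptional repressor gene Ski was at 199.5 and 139.7 CPM in WT against 161 and 122 CPM in ERG CKO (log2 fold change -0.29, SE 0.21, adjusted p = 0.578), and its relative Skil at 105 and 122 CPM in WT against 99.7 and 113 CPM in ERG CKO (log2 fold change -0.14, SE 0.13, adjusted p = 0.674). Of the target genes that encode repressors shared with Notch signalling, Hes1 was at 349 and 337 CPM in WT against 327 and 336 CPM in ERG CKO (log2 fold change -0.09, SE 0.12, adjusted p = 0.799) and Hey1 at 113 and 155 CPM in WT against 63.6 and 113 CPM in ERG CKO (log2 fold change -0.67, SE 0.26, adjusted p = 0.259).

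The list also held 3 genes that ALK1 signalling is known to hold down in ECs. Angpt2, the gene of the vessel-destabilising ligand angiopoietin-2, was at 13.7 and 22.2 CPM in WT against 86.5 and 133 CPM in ERG CKO in ECs and rose by 2.54 on the log2 scale (SE 0.28, adjusted p = 0.0107). It had 0 UMIs in both WT libraries in aCap ECs and 117 and 98 UMIs in ERG CKO, which was at least 49.03-fold higher against the limit that 3 counts over the WT group allow. In gCap ECs it rose by 2.26 (adjusted p = 0.00101). Apln, the gene of the peptide apelin and an aCap marker, was at 4.48 and 2.05 CPM in WT against 101 and 82.4 CPM in ERG CKO in gCap ECs, a log2 fold change of 4.78 (SE 0.30). In aCap ECs it was at 376 and 351 CPM in WT against 179 and 168 CPM in ERG CKO and fell by 1.08 (SE 0.18, adjusted p = 0.000931). The 2 fold changes differed by -5.84 (SE 0.33, adjusted p = 5.56e-27). Esm1, a tip cell gene, was at 15.5 and 31.3 CPM in WT against 16.05 and 20.5 CPM in ERG CKO in ECs (log2 fold change -0.43, SE 0.33, adjusted p = 0.595). Bmp4 and Esm1 fall outside the rule for named genes and are given to complete these small groups, chosen after their values were seen.

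**Figure D5:**
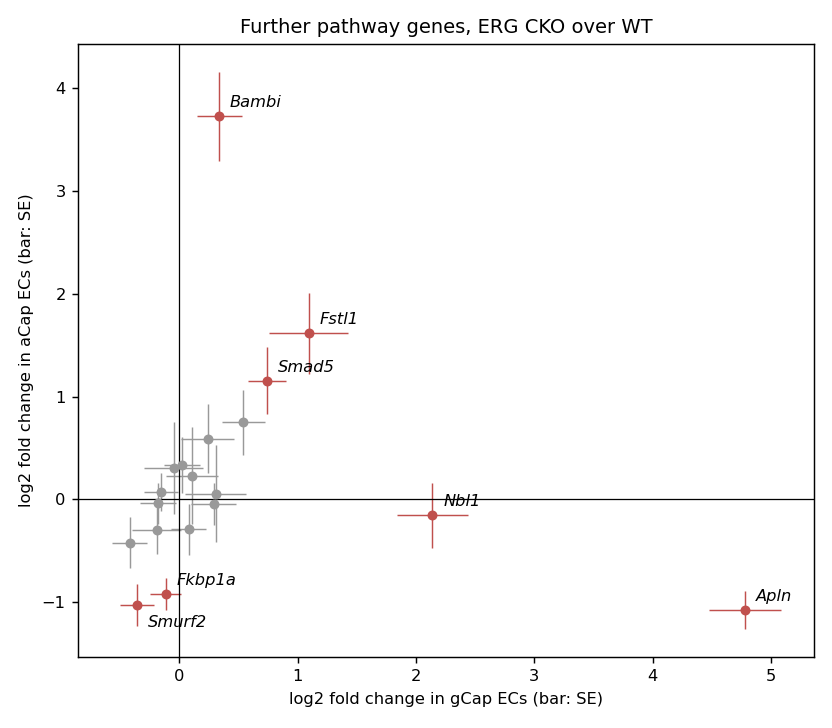
Log2 fold change of ERG CKO over WT in gCap ECs (x axis) against aCap ECs (y axis), with SE bars, for 19 further pathway genes tested in both subtypes; red points were called in at least 1 of them, and Angpt2, with 0 UMIs in WT aCap ECs, is not drawn. Bambi lies high on the y axis only, and Apln lies right of 0 and below 0.

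Over the 48 profiles of a class in a library with at least 20 cells, the genes whose log2(CPM + 10) followed the members most closely were found by Pearson correlation. The profiles share their 4 libraries and range over cell types, so the values are descriptions. Acvrl1 was most like Bmpr2 (0.966), Nostrin (0.964) and Plpp1 (0.958), so that its nearest gene was the receptor partner Bmpr2. Eng was most like Cdh5 (0.986), Calcrl (0.983) and Egfl7 (0.983), and Tmem100 most like Ramp2 (0.987), Egfl7 (0.985) and Aqp1 (0.983), both lists holding EC markers. Bmpr2 was most like Thbd (0.974), Jup (0.967) and Klhl5 (0.966), and Smad6 most like Myzap (0.966), Sox7 (0.966) and Tek (0.966). The remaining genes had lower highest values: Id3 Heg1 (0.93), Smagp (0.883) and BC028528 (0.876), Id1 Klf7 (0.878), Ier3 (0.876) and Gata2 (0.873), Smad7 H2-Q4 (0.862), Ablim1 (0.854) and Grap (0.851) and Id2 H2afz (0.827), Spn (0.781) and Tyk2 (0.764). Bmp6 stayed under 50 CPM in every profile and was left out.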

How the data were processed

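Counts came from 4 libraries of whole-lung cells. The authors deposited raw UMI counts per gene and cell, without normalization, made with Cell Ranger 3.1.0 on mm10 per the submitters' processing notes; the annotation is not given in the sources used here. The 10 genes, the gene lists and the tests were chosen with earlier results of these data known. All 9363 cells were kept, including 66 (0.705%) that Scrublet (scanpy 1.11.5) called doublets. At most 4 cell barcodes were shared between 2 libraries. Replicates differed beyond sampling noise (chi-square per degree of freedom 16.9 in WT, 18.5 in ERG CKO). Cells were aligned (CCA) and clustered in Seurat 5.3.0 (2000 variable genes, 30 dimensions, resolution 0.8; ECs re-clustered with 20 and 0.6). Clusters were named from marker lists, with the member and pathway genes and the genes called in ECs kept out of EC clustering, and names may differ from the study's. Of the cells left unnamed, 859 formed a low-depth cluster with EC genes. Counts were summed per class and library, so the mouse was the replicate (2 per group), and tested with edgeR 4.0.16 (TMM, filterByExpr, quasi-likelihood, Benjamini-Hochberg, adjusted p of at most 0.05) in R 4.3.3, after tests on simulated data. The replicate numbers name samples and do not state a shared litter or day, so no block was used. Artery, lymphatic and mural cells fell under 20 cells in a library and were not tested. Named genes were all 10 members, pathway genes called in ECs or a capillary subtype, the pathway genes of highest level in ECs, and the 3 genes most like each member.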

Additional observations from a re-analysis of the deposited data

Results flagged for a closer look

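The genotype effect differed between gCap and aCap ECs, by the interaction term of edgeR, for 3 of the 10 genes. The log2 difference, aCap minus gCap, was 2.67 for Id2 (adjusted p = 1.66e-12), 0.66 for Smad7 (adjusted p = 0.00767) and 0.53 for Eng (adjusted p = 0.0174). Of all 9501 genes 7.51% were called. The Smad7 and Eng calls were lost by DESeq2, with thinning, without alignment and when either ERG CKO library was left out, and Id2 was called in every alternative run. Beside them, the stress genes were higher in ERG CKO aCap ECs and lower in ERG CKO gCap ECs, and their part was not tested. With 2 libraries per group, single libraries were not tested for standing apart.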

How the results depend on the processing

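With 2 mice per group, counts of calls depended on the library and the setting. Leaving out 1 library each time, members called ranged from 0 to 8 in ECs, 0 to 8 in gCap ECs, 3 to 4 in aCap ECs, 1 to 5 over the other classes, vein ECs included, and 1 to 2 for the interaction, and pathway genes called in ECs from 1 to 9, the lone library of the reduced group being taken to vary like the other group. DESeq2 called 2 in ECs, 2 in gCap ECs, 1 in the interaction and 2 of the pathway list. Of all genes it called 2.77% in ECs, 1.94% in gCap ECs and 3.16% in the interaction. Without the filter on low counts, 5 were called in ECs, 7 in gCap ECs, 7 over the other classes and 13 of the pathway list. All genes were then called at 6.98% in ECs, 5.08% in gCap ECs and 0.758% over the other classes. The replicate block gave 4 in ECs (Acvrl1, Smad6, Id1 and Tmem100), 7 in gCap ECs, 4 over the other classes and 11 of the pathway list, and 4 in aCap ECs. All genes were called with it at 10.2% in ECs, 11.3% in gCap ECs, 10.3% in aCap ECs and 0.904% over the other classes. Same-numbered libraries deviated together in ECs (r = 0.354 over 9162 genes), which is a hint from the data and not part of the design. The interaction already held each library as a term, so no block was added there. Without alignment 0 were called in gCap ECs and 5 over the other classes, a 10% mitochondrial limit gave 2 over the other classes, and thinning 2 in aCap ECs and 1 in the interaction. Over the other classes, 0.808% of all genes were called without alignment and 0.215% with the mitochondrial limit. Over all genes, the 299 calls in ECs became 1188 without the filter, 1093 with the block, 195 after thinning and 22 to 803 with 1 library left out. The 390 in gCap ECs became 813, 1111, 99 and 2 to 744 under the same settings, 220 by DESeq2 and 3 without alignment. The 733 in aCap ECs became 329 by DESeq2 and 225 after thinning, and the 714 of the interaction 156 by DESeq2, 108 after thinning and 452 to 624 with 1 library left out. Of 406 recomputed fold changes, 346 kept their direction and side of the threshold and 9 reversed. Leaving out 1 library reversed Eng (-0.27 to 0.12) and Id2 (-1.07 to 0.0048) in ECs, Eng in gCap ECs (-0.38 to 0.039), and Bmpr2 (-0.20 to 0.27), Smad7 (-0.51 to 0.45) and Id3 (-0.50 to 0.10) in aCap ECs, in each case as a range of log2 fold changes. Without alignment Eng in gCap ECs (0.0080) and Smad7 in aCap ECs (-0.062) reversed. The cause of these changes was not tested. Leaving out unnamed EC clusters or cluster 6, and keeping only aCap ECs with 3 markers, were chosen after seeing the data and changed no count of members called. Pathway genes were recounted only without the unnamed EC clusters, where their count in ECs did not change. Keeping aCap ECs with 3 markers kept 44 and 73 cells in WT and 105 and 93 in ERG CKO, nearly all of them.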

Other observations

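A cluster of 859 cells that expressed EC genes at a median of 942 to 1078 UMIs per library stayed unnamed for its depth and entered no comparison. In it Acvrl1 was at 983 and 1115 CPM in WT and 620.0 and 922 CPM in ERG CKO, Smad6 at 383 and 358 CPM in WT and 168 and 296 CPM in ERG CKO, and Tmem100 at 1863 and 1442 CPM in WT and 1396 and 1261 CPM in ERG CKO. Both ERG CKO libraries were below both WT libraries for these 3 genes. In ECs 19.7% of all genes tested were placed so, and the share in this cluster was not computed. Smad7 was at 367 and 436 CPM in WT and 177 and 442 CPM in ERG CKO and Id3 at 538 and 600.0 CPM in WT and 283 and 612 CPM in ERG CKO, with ERG CKO replicate 1 again the lowest library. Id1 was at 310.5 and 218 CPM in WT and 227 and 221 CPM in ERG CKO there. Bmp6, Bmpr2, Eng and Id2 are not given for this cluster. In the 25 ECs of lymphatic type, Smad6 and Bmp6 had 0 UMIs in every library, and Acvrl1 had 3 and 2 UMIs in WT and 6 and 3 in ERG CKO.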
